A study of Drosophila melanogaster with 36 samples.

Results

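Hr38, sr, kay, Jra, CrebA and CrebB are 6 fruit fly genes for transcription factors whose activity or transcription is tied to neuronal firing, calcium or cAMP. They were chosen by name and were described by their transcripts, singly and summed per gene, in sorted clock neurons over the day. All 6 genes were measured, among 13817 genes in the abundance table, and all 6 were among the 8649 genes tested, which had a mean level of at least 1 TPM. TPM is abundance per transcript length, scaled to a fixed total per library. The choice of the 6 genes was made with earlier results of these libraries known, among them the daily curves of sr and CrebA.

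The study measured RNA in LNv neurons, the ventrally placed lateral clock neurons in fly brains, at 12 zeitgeber times (ZT, hours of the daily schedule) from ZT02 to ZT24. Brains were dissected, the neurons were sorted by fluorescence, and their RNA was amplified in a linear way before sequencing. Each time point and condition had 1 library, 36 in all. All flies were female, of the w1118 background with wild-type genotype per the labels, and carried a membrane GFP reporter driven in cells that use the Pdf promoter, which is active in both large and small LNv neurons, so that a library can hold both kinds. HC25 flies had rich food (1.5x sucrose and yeast) at 25 °C, LC25 flies had poorer food (0.5x) at 25 °C, and HC18 flies had rich food (1.5x) at 18 °C. What each code stands for was taken from its letters and digits together with the design text. Age, animals per library and light schedule were not given in the sources used here.

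In neurons, calcium and cAMP that enter or are made during firing switch on a first set of genes within minutes, and many of these encode transcription factors. Hr38 is the only fly member of the NR4A nuclear receptors, and sr encodes a zinc finger protein of the EGR family. Both are used in insects as marks of recent firing, and sr is also known for making tendon cells in the embryo. The proteins of kay (Fos) and Jra (Jun) pair as the factor AP-1, which kinases of the JNK and ERK pathways act on. CrebB is the CREB protein of flies, which cAMP and calcium signals activate and which is needed for long-term memory, whereas CrebA belongs to a different branch of bZIP proteins and in fly secretory cells switches on genes of the secretory pathway. LNv neurons are known to fire most around dawn and in the morning. Firing itself was not measured in these libraries.

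The labelled cell type stood out in the libraries. The 6 LNv markers (Pdf, Fer2, Dh31, sNPF, Pdfr and cry) summed to between 78515 and 303050 TPM in a library, and 8 glia markers had a median sum of 29.4 TPM. Nearly all of the LNv sum was Pdf, with a mean of 236859 TPM, and Dh31 came next with 1414 TPM. Other transmitter neurons (8 markers) had a median sum of 234.8 TPM, with a highest of 425 TPM, and Kenyon cells (5 markers) one of 111.2 TPM. Single genes led both sets, Tdc2 the first (mean 132.8 TPM) and prt the second (mean 94.2 TPM). The 6 haemocyte markers had a median sum of 1.81 TPM. The photoreceptor markers (9) had a median sum of 43.3 TPM and reached 1032 TPM in LC25 at ZT18. Of the markers of other cells, 7 of 8 for other transmitter neurons, 4 of 5 for Kenyon cells, 5 of 9 for photoreceptors, 5 of 8 for glia, 5 of 7 for fat body, 2 of 8 for muscle and 1 of 4 for tendon-like cells had a mean of at least 1 TPM. The HC25 library of ZT06 stood apart, with the lowest LNv sum, 707 TPM of glia markers and a median Spearman correlation of 0.837 with the other libraries across genes. The HC25 library of ZT08 (1189 TPM of glia markers, 0.893) and the HC18 library of ZT24 (0.894) came next. Another 4 HC18 libraries (ZT06, ZT08, ZT10 and ZT22) were set apart as low in the abundant transcript fmt, whose levels are not given here. Results are given with and without these libraries where that changes a call. TPM carry no depth, so the number of reads behind a value is unknown. In sorted pools a lower value from fewer expressing cells and from less RNA per cell cannot be told apart.

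CrebA had the highest level of the 6 genes, with 129 ± 61.9 TPM (SD, n = 36 libraries), and ranked 746th of all genes by mean. CrebB had 63.2 ± 23.3 TPM and Jra 51.6 ± 12.5 TPM. The levels of these 2 genes lay within one another's spread. kay, with 15.2 ± 5.46 TPM, and sr, with 14.4 ± 10.6 TPM, were also within one another's spread, and Hr38 was lowest with 4.21 ± 3.41 TPM (SD, n = 36 each). The range between the lowest and highest library was 23.2-fold for Hr38, 11-fold for sr, 5.80-fold for CrebA, 4.37-fold for kay, 4.07-fold for CrebB and 3.2-fold for Jra. The 2 genes of lowest level thus had the widest ranges, and the values of low genes in single libraries are the least precise.

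**Figure D1:**
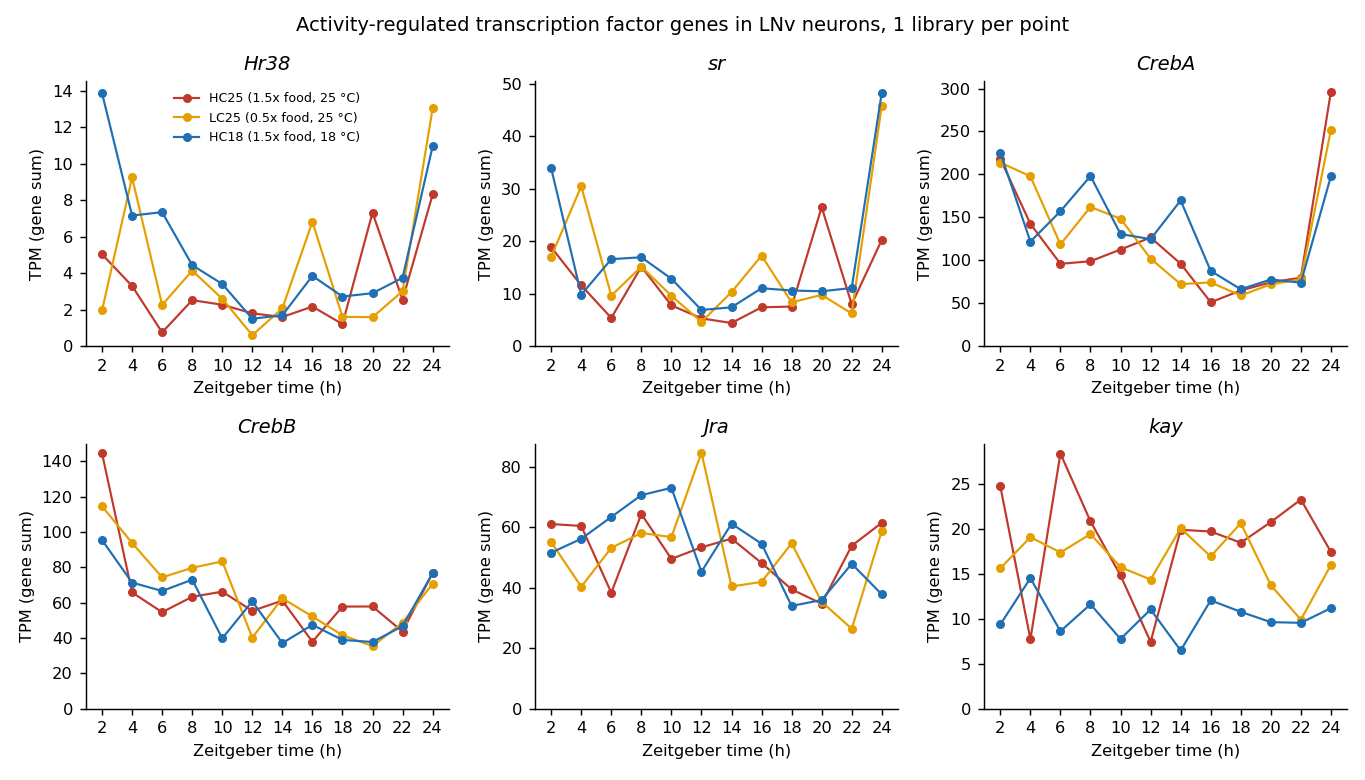
TPM of each gene (vertical axis, summed over its transcripts, from 0) by zeitgeber time (horizontal axis, hours). Each point is 1 library, and lines join the 12 libraries of HC25 (red), LC25 (orange) and HC18 (blue). CrebA is higher at ZT24 than at ZT22 in all 3 conditions, Hr38 and sr are high at ZT24 in each condition, with further high libraries at other hours, and kay lies lower in HC18.

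Hr38 was highest at the turn of the day. In HC25 its lowest, median and highest levels were 0.749, 2.40 and 8.32 TPM, and the highest was the library of ZT24. In LC25 they were 0.598, 2.43 and 13.04 TPM, again with ZT24 highest. In HC18 they were 1.5, 3.802 and 13.9 TPM, with the highest library at ZT02 and the next, 10.96 TPM, at ZT24. From ZT22 to ZT24 the level went up by a factor of 3.27 (HC25), 4.33 (LC25) and 2.92 (HC18), each from 1 library to 1 library. Outside ZT24 and ZT02 the 5 highest libraries held 7.32 TPM in HC25 at ZT20, 9.25 and 6.82 TPM in LC25 at ZT04 and ZT16, and 7.16 and 7.35 TPM in HC18 at ZT04 and ZT06. LC25 at ZT02 held 1.96 TPM, in contrast to 13.9 TPM in HC18 at that hour.

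The EGR-family gene sr moved with Hr38 from library to library. Its lowest, median and highest levels were 4.398, 7.86 and 26.5 TPM in HC25, where the highest library was that of ZT20. In LC25 they were 4.61, 10.02 and 45.8 TPM, and in HC18 6.88, 11.04 and 48.3 TPM, with ZT24 highest in both. Of the other libraries high in Hr38, HC25 at ZT20, LC25 at ZT04 (30.4 TPM), LC25 at ZT16 (17.2 TPM) and HC18 at ZT06 (16.6 TPM) were above their condition's median of sr. HC18 at ZT04 (9.79 TPM) was below it. Across the 36 libraries the log2 levels of Hr38 and sr, centred on each condition's mean, had a Pearson correlation of 0.88, and 0.81 after the fitted daily curve was taken out. Genes in a library share its cells and its scaling to a fixed total, so this correlation is a description only. The next highest value among pairs of the 6 genes was 0.76, for CrebA with CrebB (0.52 after the daily curve was taken out).

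Heat shock and DNA damage response genes, which dissection and sorting can induce, were examined beside the firing-linked genes. The 14 such genes (7 of them of the Hsp70 and Hsp68 family) summed to between 1732 and 5389 TPM in a library. Their summed level had a correlation of 0.42 with sr and 0.29 with Hr38 over the 36 libraries. The values for CrebB, Jra, CrebA and kay were 0.27, 0.26, 0.24 and 0.19. After the fitted daily curve was taken out, they were 0.45 for sr, 0.40 for Jra and 0.38 for CrebB. Those of CrebA, Hr38 and kay were then 0.33, 0.28 and 0.18. In the 5 libraries highest in Hr38 outside ZT24 and ZT02 the sum was 3955 TPM (HC25 ZT20), 4459 TPM (LC25 ZT04), 3035 TPM (LC25 ZT16), 3740 TPM (HC18 ZT04) and 5177 TPM (HC18 ZT06), against a median of 3844 TPM over the 36. In LC25 at ZT02, which had the highest sum, Hr38 was at 1.96 TPM and sr at 17.1 TPM. In HC18 at ZT02, which had the next highest (5358 TPM), Hr38 was at 13.9 TPM, its highest level, and sr at 33.9 TPM. Of the 14 genes 1, the stress response gene Gadd45, followed a daily curve, and its peak lay at ZT21.0 (3.34-fold, limma adjusted p = 5.76e-08). Over all genes tested 23.9% were called rhythmic by the same fit. The part of handling in the levels of sr and Hr38 was not tested beyond these values.

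CrebA, the most abundant of the 6, was low from ZT16 to ZT22 and high at ZT24 and ZT02. The steps between neighbouring libraries are given as values, with no test. From ZT22 to ZT24 it went from 79.7 to 296.5 TPM in HC25 (3.72-fold), from 77.8 to 251.8 TPM in LC25 (3.24-fold) and from 73.9 to 197.9 TPM in HC18 (2.68-fold). At ZT02 it was still at 218, 213.8 and 225.4 TPM in the same order. Levels then fell over the day to between 51.1 and 87.6 TPM at ZT16 and stayed between 59.01 and 79.7 TPM from ZT18 to ZT22 in all 3 conditions. The fall was uneven in each condition: CrebA was at 95.8 TPM at ZT06 and 126.5 TPM at ZT12 in HC25, at 118.5 TPM at ZT06 and 162.1 TPM at ZT08 in LC25, and at 198.1 TPM at ZT08 and 169.7 TPM at ZT14 in HC18.

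CrebB was highest at ZT02 in each condition, with 144.4 TPM in HC25, 114.5 TPM in LC25 and 95.4 TPM in HC18. Between ZT16 and ZT22 it lay between 35.5 and 57.8 TPM. The step from ZT22 to ZT24 was a factor of 1.76 (HC25), 1.45 (LC25) and 1.64 (HC18), smaller than that of CrebA in each condition. The median level over the day was 59.5 TPM in HC25, 66.6 TPM in LC25 and 54.1 TPM in HC18.

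The AP-1 partners did not share these shapes. Jra had its highest level at ZT08 in HC25 (64.4 TPM), at ZT12 in LC25 (84.7 TPM) and at ZT10 in HC18 (73.02 TPM). Its lowest levels were 34.7 TPM at ZT20, 26.5 TPM at ZT22 and 34.0 TPM at ZT18. In kay the highest libraries were those of ZT06 in HC25 (28.4 TPM), ZT18 in LC25 (20.7 TPM) and ZT04 in HC18 (14.6 TPM), so that no hour was high in all 3. HC25 at ZT06 is the library that stands apart.

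Daily curves were fitted to log2(TPM + 1) as a 24 h cosine shared by the 3 conditions, each with its own mean, by limma with p-values adjusted over the 8649 genes. Of the 6 genes 5 were called rhythmic at an adjusted p below 0.05, where 23.9% of all genes were called. Of these 5 genes 4 had fitted peaks between ZT21 and ZT06, where 3.83% of all genes were called with a peak in those hours. The fitted peak-to-trough fold of the 6 had a median of 2.18, against 1.33 over all genes tested. Because the genes were chosen with earlier results known, these counts describe them and do not set them apart from other genes. With 1 library per point, p-values measure the spread of these libraries around the curve, which may be technical.

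Hr38 and sr had nearly the same curve. For Hr38 the amplitude (mean to peak, log2) was 0.67 ± 0.152 (SE, n = 36 libraries), a 2.54-fold range with a fitted peak at ZT1.40 (95% interval ZT23.65 to ZT3.16, limma adjusted p = 0.00333). For sr it was 0.67 ± 0.145 (SE), a 2.53-fold range with a peak at ZT1.45 (ZT23.78 to ZT3.12, adjusted p = 0.00196). Without the HC18 libraries Hr38 was not called (amplitude 0.56, adjusted p = 0.144), and sr was (adjusted p = 0.0442).

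CrebA and CrebB followed later fitted curves than these. CrebA had an amplitude of 0.65 ± 0.108 (SE, n = 36), a 2.45-fold range and a peak at ZT4.60 (95% interval ZT3.30 to ZT5.89, limma adjusted p = 5.78e-05). CrebB had an amplitude of 0.47 ± 0.0809 (SE), a 1.91-fold range and a peak at ZT4.32 (ZT2.98 to ZT5.66, adjusted p = 0.000105). Jra, in contrast, had a small curve of 1.47-fold with a peak at ZT8.22 (ZT6.19 to ZT10.25, amplitude 0.28 ± 0.0732 SE, adjusted p = 0.0136). Jra was not called without the 4 HC18 libraries low in fmt (adjusted p = 0.0768), without LC25 (0.0760) or without HC18 (0.278). kay was not called (fitted range 1.09-fold, amplitude 0.06 ± 0.0945 SE, adjusted p = 0.865). Differences in peak time between genes were not tested.

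**Figure D2:**
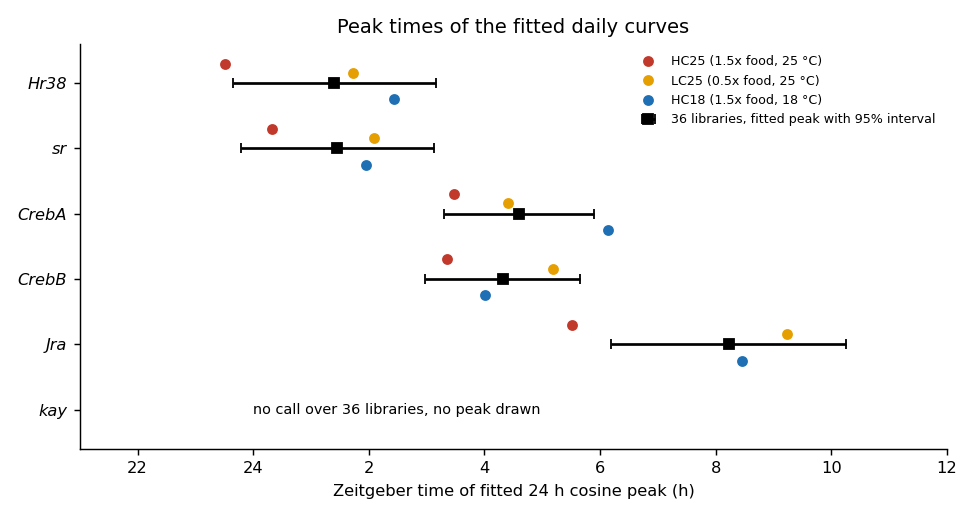
Fitted peak time of the 24 h cosine (horizontal axis, zeitgeber time in hours) for each gene. Black squares with bars are the fit over 36 libraries with its 95% interval, and coloured points are the peaks of the fits within HC25, LC25 and HC18. Hr38 and sr peak at ZT1.40 and ZT1.45, CrebB and CrebA at ZT4.32 and ZT4.60, and Jra at ZT8.22.

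A single cosine places the CrebA peak later than the measured one, since its rise was abrupt and its fall slow. A 12 h term added to the curve was called for CrebA (amplitude 0.43 ± 0.0852 SE, limma adjusted p = 0.0102), 1 of the 6 genes, where 1.41% of all genes were called. The curve with both terms peaked at ZT1.76, with its trough at ZT18.16 and a 3.61-fold range. The term was not called without the 3 libraries least like the others (amplitude 0.38, adjusted p = 0.0536). For CrebB the curve with both terms peaked at ZT2.74, and its 12 h term did not pass (0.22 ± 0.0744 SE, adjusted p = 0.252). With both terms the peak times of Hr38 and sr were ZT1.59 and ZT1.46.

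The authors' deposited table of a rank test for rhythms (BooteJTK) over all 36 libraries lists adjusted p-values of 6.77e-05 for CrebA, 0.000405 for CrebB, 0.00753 for Jra, 0.0192 for Hr38, 0.0476 for sr and 0.548 for kay. Of its 7864 entries 23.1% were below 0.05. The authors' deposited table gives mean peak phases of 0 h for CrebA and sr, 0.795 h for Hr38, 1.61 h for CrebB and 9.27 h for Jra. For the 24 libraries at 25 °C alone, the authors' deposited table lists CrebA (0.00676) and CrebB (0.0189) below 0.05. It gives 0.297 for Jra, 0.372 for sr, 0.74 for kay and 0.778 for Hr38 in the same authors' deposited table. Of the 7991 entries there, 10.8% were below 0.05.

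The morning libraries (ZT24, ZT02 and ZT04, 9 in all) were compared with the evening libraries (ZT12, ZT14 and ZT16, 9 in all), which needs no cosine shape. The comparison asks how each gene stood in the hours when LNv neurons are known to fire most. In it 4 of the 6 genes were called higher in the morning and 0 lower, where 10.4% of all genes were called, 3.28% higher and 7.09% lower. The median log2 difference was 0.94 for the 6 genes and -0.14 over all genes tested, and rescaling the libraries by their median ratio moved the latter to -0.01. After rescaling 526 genes were higher and 359 lower, in place of 284 and 613. These hours also enter the daily curves, so the comparison is no independent support for them.

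sr had 26.2 ± 14.2 TPM in the morning libraries and 8.28 ± 4.08 TPM in the evening libraries (SD, n = 9 each), with ranges of 9.79 to 48.3 and 4.398 to 17.2 TPM. Its log2 difference was 1.48 ± 0.227 (SE), 2.78-fold higher in the morning (limma adjusted p = 1.69e-05). The ranges overlapped. Hr38 had 8.1 ± 4.16 TPM in the morning and 2.46 ± 1.85 TPM in the evening, with ranges of 1.96 to 13.9 and 0.598 to 6.82 TPM. It was 2.59-fold higher (log2 1.37 ± 0.273 SE, adjusted p = 0.00068), also with overlap.

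CrebA had 207.3 ± 52.6 TPM in the morning and 100.4 ± 35.7 TPM in the evening (SD, n = 9 each), 2.10-fold higher (log2 1.07 ± 0.144 SE, limma adjusted p = 1.59e-06), with ranges that overlapped through HC18. CrebB had 89.9 ± 25.6 TPM against 50.5 ± 10.2 TPM, 1.74-fold higher (log2 0.80 ± 0.140 SE, adjusted p = 0.000116). Its morning range of 65.8 to 144.4 TPM did not overlap its evening range of 37.2 to 62.5 TPM. Jra, with 53.6 ± 8.87 and 54.0 ± 13.4 TPM, differed by log2 0.01 ± 0.153 (SE, adjusted p = 0.987), and kay, with 15.1 ± 5.23 and 14.3 ± 5.31 TPM, by 0.10 ± 0.196 (SE, adjusted p = 0.8). Their 95% intervals were -0.31 to 0.32 and -0.30 to 0.50.

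**Figure D3:**
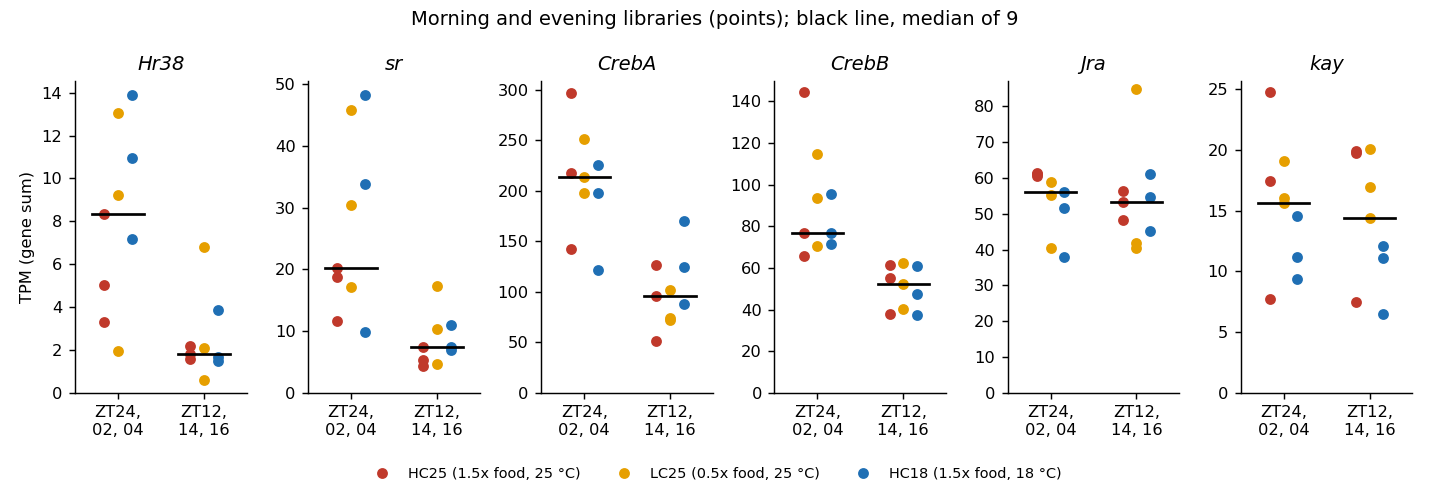
TPM (vertical axis, summed over transcripts, from 0) of the 9 morning libraries (ZT24, ZT02 and ZT04) and the 9 evening libraries (ZT12, ZT14 and ZT16) for each gene. Points are libraries coloured by condition, and black lines are medians. The CrebB ranges do not overlap (65.8 to 144.4 against 37.2 to 62.5 TPM), and those of the other 5 genes overlap.

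Within single conditions the same contrast rests on 3 libraries against 3. The sr difference was log2 1.41 in HC25, 1.51 in LC25 and 1.52 in HC18, and the Hr38 difference was 1.13, 1.16 and 1.83 (SE 0.468 and 0.518). CrebB differed by 0.82, 0.83 and 0.75 (SE 0.311). CrebA differed by 1.29, 1.42 and 0.51 (SE 0.386). None of the 6 genes was called in any single condition in limma, with adjusted p between 0.0676 for CrebA in LC25 and 0.995 for kay in LC25. Few genes were called at all: 70 in HC25, 76 in LC25 and 67 in HC18, of 8649 tested. At an unadjusted p below 0.05, 4 of the 6 were called in HC25 and in LC25 and 3 in HC18. Over all genes these counts were 713, 955 and 845. With later windows (ZT02 to ZT06 against ZT14 to ZT18) Hr38 was not called (log2 0.71, adjusted p = 0.0666), whereas sr (0.69, adjusted p = 0.032), CrebA and CrebB were.

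Marker sums of other cells were set beside the morning calls. The fat body markers had a median sum of 34.0 TPM in the morning libraries (range 7.13 to 93.6) and 14.6 TPM in the evening libraries (7.28 to 110.8). The sums for glia were 28.04 and 27.5 TPM. For tendon-like cells, where sr is a known marker, they were 24.7 and 21.9 TPM. Nearly all of the tendon-like sum was shot (mean 23.8 TPM), and Tsp, slow and how each had a mean below 1 TPM. The LNv marker sums, nearly all Pdf, were 224916 and 237316 TPM. The heat shock and damage genes had medians of 3909 and 3521 TPM. Of the fat body (5 tested), glia (5), heat shock (14) and tendon-like (1) lists 0 members were called in this comparison. Over all genes 3.28% were called higher and 7.09% lower. The part of these cells in the calls was not tested.

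The daily curves were also fitted in each condition by 12 libraries. In LC25, where 6.14% of all genes were called, 2 of the 6 genes were rhythmic: CrebA (3.08-fold, peak ZT4.41, limma adjusted p = 0.0153) and CrebB (2.21-fold, ZT5.18, adjusted p = 0.0288). In HC25, where 8.45% were called, 0 of the 6 passed in limma. At an unadjusted p below 0.05, 2 of the 6 did, as did 1961 of all 8649 genes. CrebA was nearest to a call (2.41-fold, ZT3.48, adjusted p = 0.0708). It was called after rescaling by the median ratio (0.0198) or without the library of ZT06 (0.0366). In HC18, where 5.52% were called, 0 of the 6 passed. An unadjusted p below 0.05 was reached by 5 of the 6 and by 1236 of all 8649 genes. Hr38 had the widest curve (3.77-fold, ZT2.43, adjusted p = 0.0652). With HC18 fitted alone Hr38 (0.00794) and CrebB (0.039) were called.

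Peaks within conditions were spread by a few hours. For sr they lay at ZT0.32 in HC25, ZT2.09 in LC25 and ZT1.95 in HC18. For Hr38 they lay at ZT23.5, ZT1.72 and ZT2.43, and for CrebA at ZT3.48, ZT4.41 and ZT6.14. The standard errors of these single-condition peaks were between 0.889 and 1.87 h, and the curves of the conditions were compared by the tests that follow. For poorer against rich food at 25 °C, 0 of the 6 genes were called (0% of all genes), and the vector difference of the curves was 0.34 ± 0.375 for Hr38, 0.31 ± 0.370 for sr and 0.25 ± 0.267 for CrebA (log2, SE, limma adjusted p of 1 for each). For 18 °C against 25 °C it was 0.67 ± 0.375 for Hr38, 0.30 ± 0.370 for sr and 0.42 ± 0.267 for CrebA (adjusted p = 0.994 for each), again with 0 of 6 called (0%). At an unadjusted p below 0.05, 0 of the 6 were called in either comparison, beside 355 and 316 of all 8649 genes. These misses do not show that the curves were alike, given the size of the standard errors.

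The level over the day of 1 gene differed between temperatures. kay had 18.7 ± 6.23 TPM in HC25, 16.6 ± 3.07 TPM in LC25 and 10.2 ± 2.13 TPM in HC18 (SD, n = 12 libraries each). In HC18 its lowest, median and highest levels were 6.50, 10.2 and 14.6 TPM, in HC25 7.46, 19.8 and 28.4 TPM, and in LC25 9.93, 16.5 and 20.7 TPM. Of the 12 HC25 libraries 10 lay above the highest HC18 library, as did 9 of the 12 LC25 libraries, and the HC25 libraries of ZT04 and ZT12 were as low as those of HC18. Matched by time point, kay at 18 °C was at 59.7% of its HC25 level on the log2(TPM + 1) scale (log2 -0.74 ± 0.170 SE, lower in 10 of 12 pairs, limma adjusted p = 0.00648). It was the 1 called gene of the 6, lower, where 8.22% of all genes were called, 2.3% lower and 5.92% higher. These are 199 and 512 genes, and after rescaling by the median ratio 515 were lower and 558 higher.

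The kay difference was not called without the 4 HC18 libraries low in fmt (log2 -0.65, adjusted p = 0.112), a fit that called 138 genes in place of 711. The kay levels of these 4 libraries, 8.64, 11.6, 7.78 and 9.58 TPM, lay within the range of the other 8. Its 2 main transcripts were both lower at 18 °C: kay-RB had 4.91 ± 1.78 TPM against 9.40 ± 4.80 in HC25, and kay-RF had 2.42 ± 0.867 against 6.29 ± 3.18 (SD, n = 12 each, not tested singly). kay-RG, with 1.97 ± 0.752 and 1.62 ± 1.31 TPM, was not lower by its mean.

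Marker sums also differed between these temperatures. The LNv markers had a median sum, nearly all Pdf, of 276637 TPM in HC18 and 219021 TPM in HC25. Of these markers 2 of 6 were called higher and 0 lower, where 5.92% of all genes were called higher and 2.3% lower. The fat body markers had medians of 12.2 and 31.5 TPM, with 0 of 5 tested called higher and 2 lower, Yp1 (log2 -1.97) and Yp3 (-1.53). The heat shock and damage genes had medians of 4178 and 3844 TPM, with 2 of 14 called higher, stv (log2 0.58) and Hsp70Ab (3.08), and 0 lower. The glia sums were 34.6 and 30.8 TPM. Their part in the levels of kay, Hr38 and sr at 18 °C was not tested.

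Hr38 and sr were higher at 18 °C in 10 of 12 pairs each, without passing the threshold: log2 0.54 ± 0.237 (SE, limma adjusted p = 0.151) and 0.43 ± 0.197 (SE, adjusted p = 0.169). CrebA differed by 0.23 ± 0.125, CrebB by -0.17 ± 0.121 and Jra by 0.01 ± 0.133 (SE, adjusted p between 0.265 and 0.977), with 95% intervals of -0.03 to 0.48, -0.42 to 0.08 and -0.26 to 0.28. On poorer food 0 of the 6 genes differed in level from rich food (0% of all genes were called in limma; at an unadjusted p below 0.05 there were 453, and 0 of the 6 genes). The largest difference was that of sr, log2 0.32 ± 0.197 (SE, adjusted p = 0.973, higher in 8 of 12 pairs). The HC18 and LC25 comparisons share the HC25 libraries.

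The 6 genes have 27 annotated transcripts, of which 26 are in the table and 14 had a mean of at least 1 TPM. Of these 14 transcripts 4 were called rhythmic, 1 for each of the 4 genes with morning peaks, where 13.4% of the 14167 transcripts tested were called. Transcripts of a gene share reads, and their division among them is an estimate. For sr, sr-RE made up a median of 99.7% of the level. The transcripts sr-RA and sr-RD, which encode longer proteins, had the same mean, 0.0303 TPM. sr-RE had a 2.51-fold curve with a peak at ZT1.44 (limma adjusted p = 0.0076).

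Hr38 was made of 2 transcripts. Hr38-RB encodes 1078 and Hr38-RD 836 residues by the annotation, and their median shares were 68.0% and 32.0%. Hr38-RD was the called one, with a 2.83-fold curve and a peak at ZT1.31 (adjusted p = 0.00877), a morning median of 4.29 TPM and an evening median of 0.18 TPM. The size of its curve depends on the pseudocount: the amplitude was 0.75 with a pseudocount of 1 and 1.55 with 0.1. Hr38-RB had a 1.70-fold curve (adjusted p = 0.323), with medians of 3.96 and 1.56 TPM. Whether the 2 transcripts differ was not tested, and each was at 0 in some libraries, 2 for Hr38-RB and 4 for Hr38-RD.

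CrebA-RA and CrebA-RB encode the same protein of 516 residues. CrebA-RB held a median share of 76.5% and was called (2.7-fold, peak ZT5.04, adjusted p = 0.000807), and CrebA-RA was not (1.52-fold, adjusted p = 0.826). The median share of CrebA-RA was 13.3% in HC25, 16.7% in LC25 and 34.9% in HC18. CrebB-RJ, which encodes 281 residues, held 87.2% of CrebB and was called (1.94-fold, ZT4.39, adjusted p = 0.00436). CrebB-RI (4.82%) and CrebB-RM (7.93%) were not, with adjusted p of 0.581 and 0.129, although CrebB-RM was after rescaling by the median ratio (0.0108).

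Jra-RA and Jra-RC have the same exons and differ in the annotated coding part, and their TPM were identical in all 36 libraries, so they cannot be told apart. Neither they (1.73-fold, adjusted p = 0.0995) nor Jra-RB (2.01-fold, adjusted p = 0.566) was called. Of kay, kay-RB held a median share of 47.5%, kay-RF 28.2% and kay-RG 12.4%. They have different start sites by the annotation and encode 546, 755 and 646 residues, and 0 were called in limma (adjusted p between 0.539 and 0.979), also at an unadjusted p below 0.05.

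**Figure D4:**
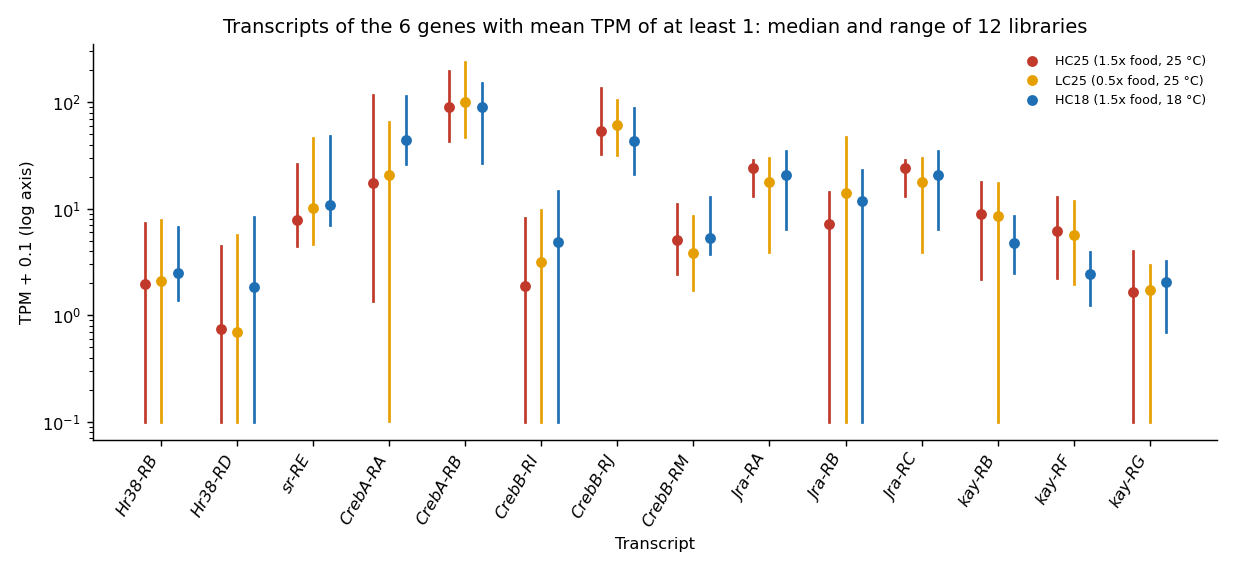
TPM + 0.1 (vertical log axis) of the 14 transcripts with a mean of at least 1 TPM. Points are medians and bars ranges of the 12 libraries of HC25 (red), LC25 (orange) and HC18 (blue). sr is nearly all sr-RE, CrebB mostly CrebB-RJ, and kay-RB and kay-RF lie lower in HC18.

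By the annotation, 4 of the 6 genes overlap a protein-coding gene on the opposite strand. CrebB shares 344 exon bases with por (18.1 TPM), Hr38 shares 168 with CG2617 (11.1 TPM) and Jra shares 39 with RpLP0-like (33.1 TPM). kay holds fig (0.805 TPM) in an intron. The sources used here do not say whether strand was used, so reads of such pairs cannot be told apart in the shared bases. The mean of CG2617 is above that of Hr38, which makes the level of Hr38 the least certain of these. sr lies apart from other protein-coding genes, and CrebA too.

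For each gene, the 3 other genes of most similar pattern (mean of at least 10 TPM, Pearson r of condition-centred log2 levels over 36 libraries, given without a test) were listed. Those of Hr38 were sr (0.88), chinmo, which encodes a BTB zinc finger protein (0.71), and Myc (0.70). Those of sr were Myc (0.79), Cip4 (0.71) and Rgk1 (0.70), and Hr38 itself is below the level limit. For CrebA they were jeb, a secreted ligand gene of the receptor Alk (0.88), the kinase gene meng (0.85) and nebu (0.84). For CrebB they were smog, a G protein-coupled receptor gene (0.83), orb, which encodes an RNA-binding protein of translation control (0.83), and stai, the stathmin gene (0.83). Jra had Cerk, the ceramide kinase gene (0.89), and the actin gene Act42A (0.84). kay had lower values, 0.59 for sgl, 0.55 for Rgl and 0.54 for Pax.

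Genes linked to the 6 by function were read from lists chosen with earlier results known, beside the 23.9% of all genes that were rhythmic. Of other genes linked to neuronal firing in flies, 4 of 6 measured were rhythmic. meng had a 12.6-fold range with a peak at ZT4.85 (limma adjusted p = 1.24e-10) and was 6.84-fold higher in the morning libraries. CG17778 had a 6.42-fold range with a peak at ZT6.09, CG14186 a 1.59-fold range with a peak at ZT5.15, and CG13055 ran opposite, with a 2.16-fold range and a peak at ZT14.04. For comparison, the clock gene Clk peaked at ZT2.80 (10.3-fold) and tim at ZT16.01 (14.2-fold).

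In the JNK and ERK pathways that act on AP-1, 7 of 14 tested genes were rhythmic, with peaks spread over the day. aop, a repressor that ERK signalling removes, had a 4.05-fold range with a peak at ZT4.41 (limma adjusted p = 4.75e-07) and was 2.90-fold higher in the morning. Mkp3, a phosphatase of ERK, had a 3.30-fold range with a peak at ZT11.9 and was lower in the morning (0.45-fold). The kinase genes rl (ERK, 1.58-fold, ZT14.8) and bsk (JNK, 1.37-fold, ZT17.03) peaked later. At 18 °C bsk was higher than in HC25 (log2 0.39, adjusted p = 0.013). It was the 1 called gene of the 14, where 8.22% of all genes were called.

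In cAMP and calcium signalling, 11 of 18 tested genes were rhythmic. The protein kinase A genes led: the catalytic subunit gene Pka-C1 had a 3.07-fold range with a peak at ZT7.42 (limma adjusted p = 7.96e-11), Pka-R1, a regulatory subunit gene, a 2.79-fold range at ZT8.76, and Pka-R2 a 1.95-fold range at ZT12.4. CanA-14F, a calcineurin gene, had a 1.57-fold range at ZT16.3. In this list 0 genes were called higher in the morning and 3 lower, Pka-R2 among them (0.54-fold). Over all genes 3.28% were called higher in the morning and 7.09% lower.

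Genes of protein entry into the secretory pathway and of COPI and COPII transport, which CrebA is known to control in fly secretory cells, were rhythmic in 16 of 41 cases. All 16 had fitted peaks between ZT6 and ZT12, where 5.27% of all genes were rhythmic with a peak in these hours. KdelR, the receptor that returns proteins to the endoplasmic reticulum, had a 1.56-fold range at ZT7.31 (limma adjusted p = 1.71e-05). Sec61beta, of the translocation channel, had a 1.75-fold range at ZT6.27, alphaCOP, a coat subunit gene, 1.64-fold at ZT6.99 and Sec61gamma 1.64-fold at ZT8.17. These peaks lie later than the fitted CrebA peak, ZT4.60 by a single cosine and ZT1.76 with the 12 h term added. The difference was not tested. The list's median fold of 1.3 was near that of all genes (1.33). At 18 °C 5 of its 41 genes were called higher and 0 lower, where 5.92% of all genes were called higher and 2.3% lower.

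**Figure D5:**
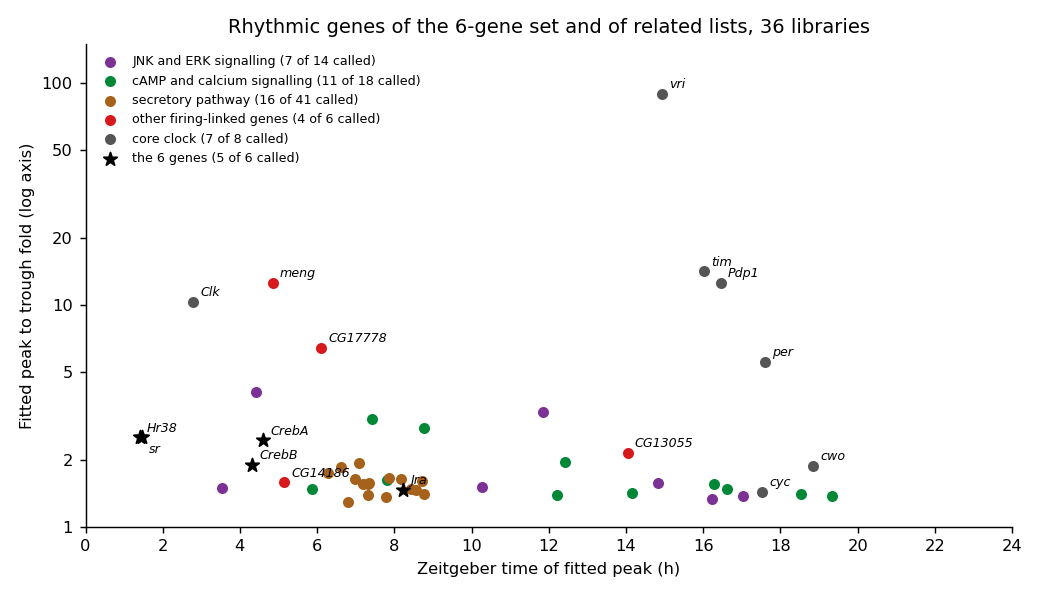
Fitted peak-to-trough fold (vertical log axis) and fitted peak (horizontal axis, zeitgeber time in hours) over 36 libraries. Points are the genes called rhythmic at a limma adjusted p below 0.05 among the 6 genes (black stars) and the lists in the legend. The legend counts called and tested genes. All 16 secretory pathway genes called lie between ZT6 and ZT12, and Hr38 and sr are the only points before ZT2.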

How the data were processed

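RNA of LNv neurons was measured in 36 libraries, 12 time points in each of 3 conditions. The authors' deposited table holds TPM per transcript, made with kallisto per the submitters' processing notes; its version, transcript set, genome build and strand setting were not given in the sources used here. TPM are shares of a fixed total of 1000000, so depth is unknown and no counting interval is given. The authors also deposited rhythm tables with adjusted p-values (BooteJTK, per the file headers). Transcripts were named with Ensembl release 115 (30246 of 30485 matched) and TPM were summed per gene.

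Log2(TPM + 1) was, for the 8649 genes whose mean TPM reached 1, fitted with limma 3.58.1 (R 4.3.3, eBayes with trend) as given beside each result, with Benjamini-Hochberg adjustment over all genes. This scale understates changes of low genes. The fits were tested on simulated data. Of shared rhythms 26% were recovered at 1.5-fold and 68% at 2-fold, and of level differences 34% and 84%. Of morning differences 32% and 78% were recovered at these folds. Of rhythm differences between conditions 0% were recovered at 1.5-fold, 8% at 2-fold and 46% at 4-fold, so misses there say little. Alternatives were pseudocount, filter, median-ratio rescaling, robust eBayes, libraries or conditions left out, and windows. Members, lists, tests and the rule for named genes (all 6 genes, the 3 of most similar pattern for each, up to 4 of smallest p per list; 1 gene of similar pattern is not reported here) were chosen with earlier results of these data known. Of the remaining lists, 3 of 7 nuclear receptor genes and 6 of 11 other bZIP genes were rhythmic. Whether libraries are of separate animals is not in the labels. Sequences of the genes were not used here.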

Additional observations from a re-analysis of the deposited data

How the results depend on the processing

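Of 593 values of single genes or transcripts under other settings, 19 lost and 9 gained a call. Amplitudes and curve differences have no sign. Of the 177 level and morning differences, which do, 9 changed sign, all in values that did not pass: CrebB on poorer food (-0.0255 without HC25 ZT06, -0.0662 without the 3 libraries least like the others), Jra at 18 °C (-0.0624 after rescaling, -0.0476 without HC25 ZT06, -0.155 without the 4 HC18 libraries low in fmt), and in the morning contrast kay (-0.0376 with later windows, -0.012 in LC25) and Jra (-0.0455 in LC25, -0.152 in HC18). The count of rhythmic genes among the 6 was 3 without HC18, and 1 in HC25 after rescaling, without HC25 ZT06 or without the 3 libraries. In HC18 it was 2 after rescaling or fitted alone and 1 without HC25 ZT06. The level count at 18 °C was 0 without the 4 libraries, the morning count 0 in each condition alone, and the 12 h count 0 without the 3 libraries.

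Over all genes, 2065 shared rhythms became 1351, 1204 and 1163 without HC25, LC25 and HC18. The 731 in HC25 became 272 fitted alone, and the 477 in HC18 became 270 without the 4 libraries. Rhythm differences at 18 °C went from 0 to 1 (rescaled), 5 (without HC25 ZT06) and 4 (without the 3 libraries), and level calls on poorer food from 0 to 1 (without the 3). The 711 level calls at 18 °C became 1073 rescaled (558 higher, 515 lower), 138 without the 4 libraries and 422 with no time point factor. The 897 morning calls became 1678 with later windows and 70, 76 and 67 in HC25, LC25 and HC18, and the 122 calls of the 12 h term became 72 with no filter, 208 without HC25 ZT06 and 54 without the 4 libraries. Why they moved was not tested. Fits with libraries left out also rest on fewer libraries. Hr38 is below the stricter minimum of 5 TPM and has no value there. The level fit pairs libraries by time point. Without that factor kay at 18 °C was called as well (log2 -0.74, adjusted p = 0.00527). Low genes are limited by an unknown depth.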
